A study of Mus musculus with 8 samples.

Results

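The set described here comprised 38 genes of the interferon response and of class I antigen presentation, measured in fibroblasts sorted from mouse back skin. Members were chosen by symbol, and each was represented by the probe set that the array annotation gives to that gene alone, choosing the brightest set on average where a gene had several. All 38 named genes were measured, out of 17097 genes with such a probe set. They fell into 6 signalling and transcription genes, 5 nucleic acid sensors, 14 antiviral effectors, 3 chemokines, 5 interferon-induced GTPases and 5 class I presentation genes.

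Each of the 8 samples was an array of 1 animal, with 4 animals in each group, and the question was how prolonged topical inhibition of the nuclear receptor PPARG affects dermal fibroblasts of old skin. In the GW9662 group, 150 nmol of GW9662, an irreversible PPARG antagonist, was applied to the back in 300 µl of acetone, and the vehicle group received 300 µl of acetone alone. Both groups were treated 3 times a week for 6 months from an age of 12 months, so repeated acetone was common to all samples. Fibroblasts were taken by flow cytometry as Pdgfra-positive and CD34-positive cells without CD45, CD117, CD24, CD31 or EpCam, from skin freed of its subdermis and digested with collagenase, and RNA of 5000 cells was amplified over 21 cycles. Strain and sex are not given in the sources used here. Animals of the same number in both groups (vehicle 1 and GW9662 1, and so on) were read as pairs taken on the same day.

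Interferons signal through cell-surface receptors to transcription factors. Type I interferons mainly yield ISGF3, a complex with STAT2 and IRF9 that binds the interferon-stimulated response element (ISRE), whereas interferon gamma acts mainly through the gamma-activated site (GAS) and induces IRF1. The induced genes restrict viral replication, attract T cells and raise the presentation of peptides on class I molecules. Dermal fibroblasts carry these receptors and respond to interferons from neighbouring cells.

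Promoter sequence was examined because the members are commonly grouped by these elements. RefSeq promoters of the GRCm38.p6 build were matched by symbol to 27 of the 38 members, and the 250 bases before each start were searched. Some genes had several starts, and a gene was counted if any of its promoters held the core. The ISRE core was written as GAAANNGAAA on one strand and TTTCNNTTTC on the other, and overlapping matches were merged. It was present in 11 of the 27 members (40.7%) and in 3.46% of the 27025 genes of the promoter table. All 5 GTPases held it, as did 4 of 9 antiviral effectors (Ifit1, Ifit3, Oas3 and Rsad2), Cxcl10 and Stat2. None of the 5 class I presentation genes held these letters in this window. The GAS core TTCNNNGAA, which reads alike on both strands, was present in 6 of 27 members (22.2%; Eif2ak2, Gbp7, Ifit2, Igtp, Irf1 and Psmb8), against 8.13% of all genes. A match describes the letters and not binding.

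The stretches below are those of the GTPases, the role in which every member held the core, of Ifit1 and Ifit3, and of Cxcl10 and Stat2. They are shown as examples, and the stretches of Oas3 and Rsad2 are not printed. The capitals mark the ISRE core, and each is written 5′ to 3′ on the strand of the gene.
Igtp (chr11:58199502-58199551, plus strand): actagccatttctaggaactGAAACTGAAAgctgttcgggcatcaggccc
Irgm1 (chr11:48871421-48871470, minus strand): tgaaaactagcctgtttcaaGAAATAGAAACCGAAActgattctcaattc
Gbp2 (chr3:142620584-142620633, plus strand): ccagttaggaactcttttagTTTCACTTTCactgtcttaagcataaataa
Gbp3 (chr3:142559979-142560034, plus strand): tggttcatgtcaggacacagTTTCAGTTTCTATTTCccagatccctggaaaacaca
Gbp7 (chr3:142530263-142530312, plus strand): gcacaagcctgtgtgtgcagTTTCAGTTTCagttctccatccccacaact
Ifit1 (chr19:34640765-34640833, plus strand): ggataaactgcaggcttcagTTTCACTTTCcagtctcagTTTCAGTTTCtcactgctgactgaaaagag
Ifit3 (chr19:34583353-34583436, plus strand): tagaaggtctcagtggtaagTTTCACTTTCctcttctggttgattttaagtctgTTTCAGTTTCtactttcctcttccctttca
Cxcl10 (chr5:92349073-92349122, minus strand): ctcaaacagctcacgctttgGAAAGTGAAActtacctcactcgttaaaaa
Stat2 (chr10:128270256-128270305, plus strand): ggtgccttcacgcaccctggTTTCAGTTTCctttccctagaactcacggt

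Ifit1 and Ifit3 each held a pair of separate cores, and Irgm1 and Gbp3 held overlapping matches. The Ifit3 stretch lies inside the annotated gene, which begins at 34583119, and so precedes an internal start. The end of the Gbp3 stretch also runs past the first base of its annotated gene, at 142560016. The promoter of Irf1, the transcription factor that interferon gamma induces, had a GAS core and no ISRE core in this window. Its stretch is shown for contrast, with the GAS core in capitals.
Irf1 (chr11:53769904-53769952, plus strand): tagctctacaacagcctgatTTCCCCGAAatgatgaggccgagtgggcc

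Values are the deposited log signals, taken as log2 from their range, so a difference of 1 is a doubling of signal. Array medians over all probe sets lay between 4.63 and 4.69. Correlations between samples over genes were 0.990 to 0.997, and at most 2.95% of the values of any pair were equal. Levels of different probe sets are not compared as amounts of transcript, and no detection calls were used. The mean signal of 23 members lay above the median of all gene means (5.27) and that of 15 members below it. Vehicle 4 stood apart on the first principal component of all genes, at 22.2 against -10.4 to 5.49 for the others. At the opposite end GW9662 1 (-10.4) was followed closely by vehicle 2 (-8.26) and GW9662 2 (-5.86). Cd34 signal was 10.49 to 10.81, Pdgfra signal 4.63 to 5.13, and Ptprc signal (the CD45 gene) 2.81 to 3.01. For the other excluded surface markers, Kit (CD117) was at 3.05 to 3.19, Cd24a at 3.41 to 3.69, Pecam1 (CD31) at 4.63 to 5.27 and Epcam at 3.73 to 4.07. The mean of 7 endothelial markers varied from 4.83 to 5.33 in vehicle and from 4.93 to 5.18 in GW9662, and among them Kdr ran from 6.72 to 8.58 and Tek from 5.53 to 6.71 over all samples (both named after their values had been seen). These signals do not show how far the sort removed a cell type. In these bulk samples, fewer cells of a type and less RNA per cell cannot be told apart.

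No member differed between GW9662 and vehicle beyond the spread between animals. By limma with Benjamini-Hochberg adjustment over all 17097 genes, 0 of 38 members had an adjusted p under 0.05, the lowest being 0.997, and 0% of all genes passed. At an unadjusted p under 0.05, 0 of 38 members passed, where 578 genes (3.38%) did so. With the replicate number as a block, 0 of 38 members passed at either level, where 826 genes (4.83%) had an unadjusted p under 0.05. No member had groups that did not overlap, against 300 genes (1.75%). The member of smallest unadjusted p was Irf9, at 0.0758.

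Member differences lay on both sides of zero. GW9662 minus vehicle was above zero in 20 members, below in 17 and equal in Igtp, with a median of 0.00375 against -0.005 over all genes, of which 47.0% were above zero. The median size of a difference, regardless of sign, was 0.07 for the members and 0.06 for all genes. The 95% intervals of 33 of 38 members lay within 0.5 on the log2 scale (1.41-fold) in either direction, and those of 18 within 0.3 (1.23-fold). The intervals of 37 members lay within 1 (2-fold), the exception being Cxcl9. These intervals are for the mean difference between groups, judged from the spread between these 8 animals. A p above the threshold does not show that the groups are alike. The intervals given are those of the fit without the replicate block. With the block, the interval of Cxcl10 was -0.61 to 0.22 (without, -0.76 to 0.37). That of Ifit2 was -0.18 to 0.55 (without, -0.12 to 0.50).

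**Figure D1:**
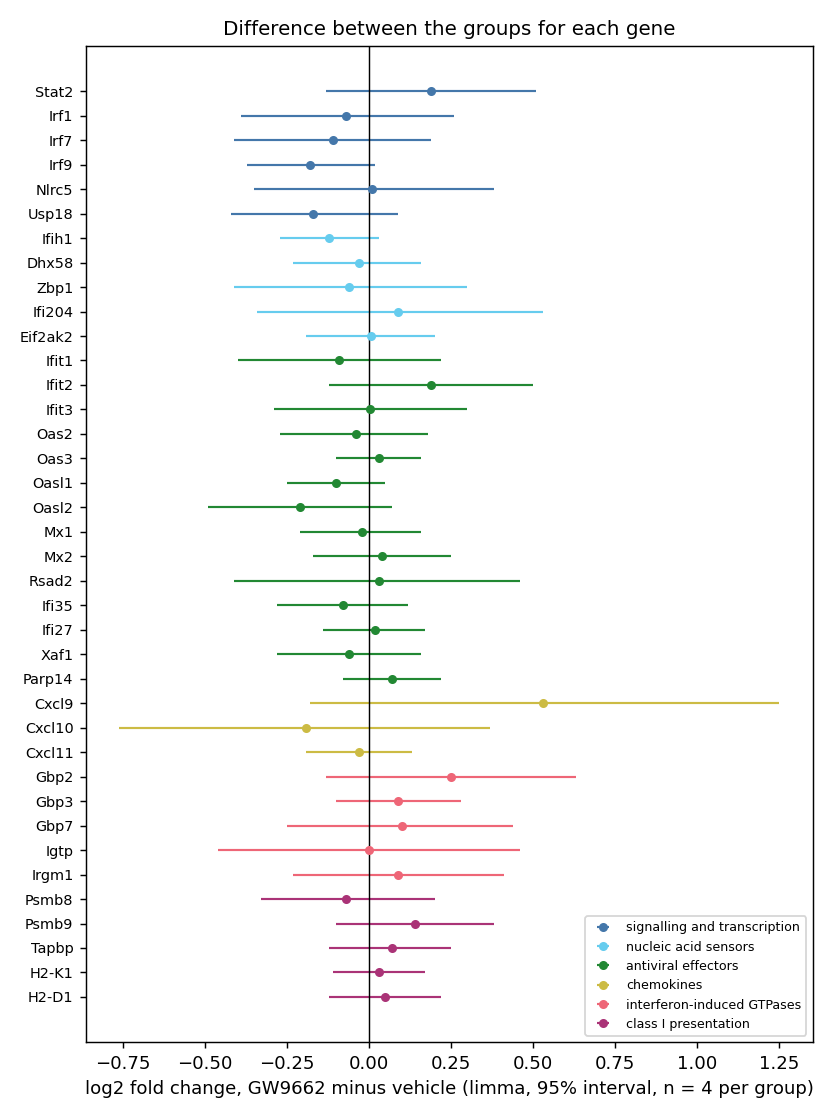
Difference between GW9662 and vehicle in log2 signal for each of the 38 members, grouped by role. Each point has its 95% interval from limma without the replicate block, on 4 against 4 animals. Every interval includes zero, and that of Cxcl9, from -0.18 to 1.25, is the widest.

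The spread of the members between animals is given beside that of all genes. The median SD over the 8 samples was 0.18 for members and 0.12 for all genes. The range over the 8 samples exceeded 0.5 in 21 of 38 members and in 21.6% of all genes. It exceeded 1 in Cxcl9 (1.89), Cxcl10 (1.17) and Igtp (1.06). The animals that stood high or low were not the same for every role, and the account below follows the roles in turn.

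**Figure D2:**
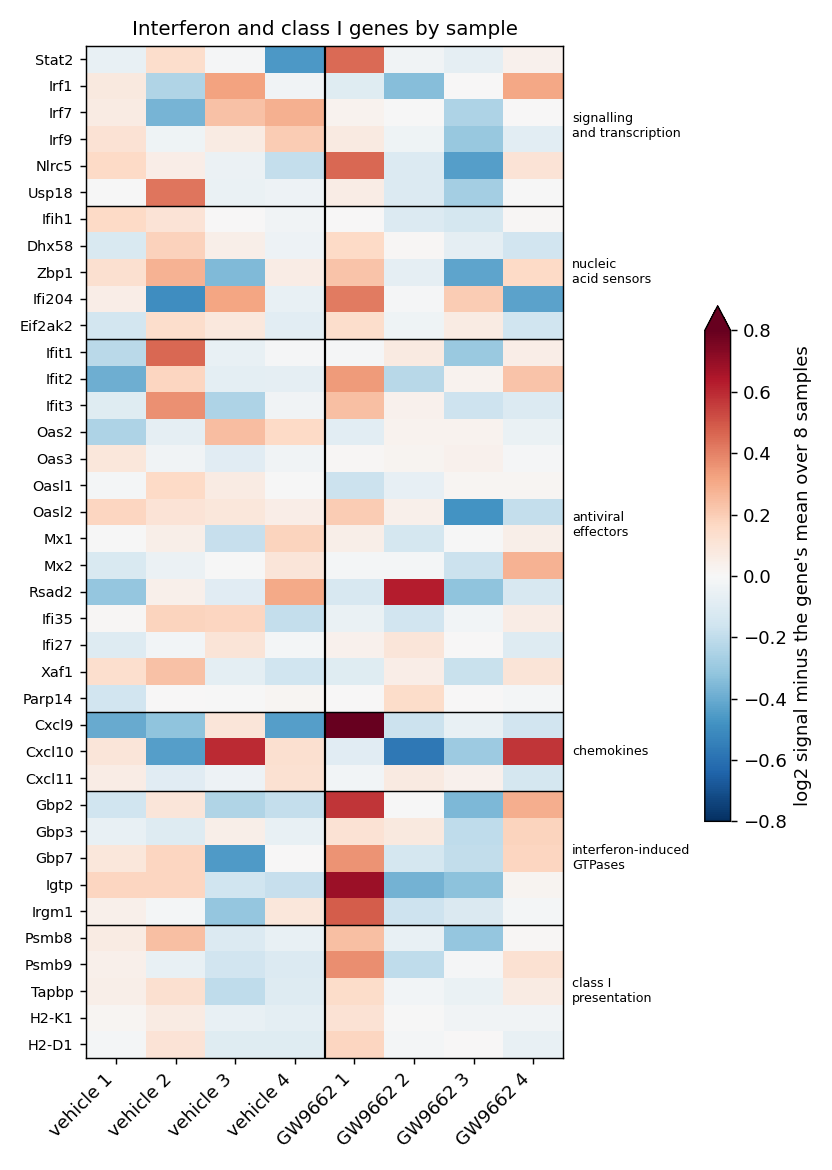
Deviation of each member's log2 signal from its own mean over the 8 samples, with members as rows grouped by role and samples as columns; colours beyond the ends of the scale are drawn at its ends. GW9662 1 is the highest sample for 14 of 38 members, and GW9662 3 is the lowest for 13.

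The signalling and transcription genes had a median difference of -0.09, with 2 of 6 higher and 4 lower in GW9662. Irf9, the DNA-binding subunit of ISGF3, measured 8.47, 8.32, 8.42 and 8.56 in vehicle 1 to 4 and 8.43, 8.32, 8.05 and 8.27 in GW9662 1 to 4. Its difference was -0.18 ± 0.09 (SE; 95% interval -0.37 to 0.02), lower in 3 pairs and equal in pair 2. The groups overlapped through GW9662 1 and 2.

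Stat2, a subunit of ISGF3, measured 7.64, 7.84, 7.69 and 7.24 in vehicle 1 to 4 and 8.15, 7.67, 7.63 and 7.73 in GW9662 1 to 4. Nlrc5, the transactivator of class I genes, measured 5.25, 5.14, 5.04 and 4.90 in vehicle and 5.55, 4.98, 4.65 and 5.20 in GW9662. Both were highest in GW9662 1, and without that sample the Stat2 difference went from 0.19 to 0.07 and the Nlrc5 difference from 0.01 to -0.14. The other three GW9662 samples lay within the vehicle range for Stat2. Its lowest sample was vehicle 4, at -0.45 from the median of the other 7 samples, and leaving out vehicle 4 lowered the Stat2 difference as well.

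Usp18, an interferon-induced protease that removes ISG15 and dampens receptor signalling, measured 6.04, 6.47, 5.99 and 6.00 in vehicle 1 to 4 and 6.10, 5.93, 5.77 and 6.04 in GW9662 1 to 4. Vehicle 2 stood above all others and GW9662 1 did not stand apart. Irf1 measured 9.76, 9.44, 10.00 and 9.65 in vehicle and 9.58, 9.34, 9.68 and 9.99 in GW9662, so that its highest samples were vehicle 3 and GW9662 4. Irf7, the factor that amplifies type I interferon production, measured 6.87, 6.43, 7.04 and 7.09 in vehicle and 6.83, 6.80, 6.56 and 6.81 in GW9662, with vehicle 2 lowest.

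The nucleic acid sensors had a median difference of -0.03, with 2 of 5 higher and 3 lower. Ifih1 encodes MDA5, a cytoplasmic sensor of double-stranded RNA, and measured 7.23, 7.18, 7.07 and 7.04 in vehicle and 7.07, 6.96, 6.93 and 7.08 in GW9662, a difference of -0.12 ± 0.07 (SE; interval -0.27 to 0.03). It was lower in 3 of 4 pairs, with overlapping groups. Zbp1, a sensor of Z-form nucleic acids, measured 8.16, 8.31, 7.68 and 8.09 in vehicle and 8.26, 7.96, 7.61 and 8.19 in GW9662. Its lowest samples were both animals of number 3, and its pair differences ran from -0.35 to 0.10.

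Ifi204, a DNA-binding member of the p200 family, measured 5.16, 4.61, 5.42 and 5.05 in vehicle and 5.52, 5.10, 5.31 and 4.68 in GW9662. It was highest in GW9662 1 and lowest in vehicle 2, and the groups spanned nearly the same range. Dhx58, which encodes the sensor LGP2, and Eif2ak2, which encodes the RNA-dependent kinase PKR, had differences of -0.03 and 0.005 and ranges over the samples of 0.34 and 0.30.

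The antiviral effectors had a median difference of -0.01, with 7 of 14 on either side of zero. The Ifit genes, whose proteins bind foreign RNA and lie side by side on chromosome 19, did not share a highest sample. Ifit1 measured 4.37, 5.05, 4.53 and 4.58 in vehicle 1 to 4 and 4.58, 4.66, 4.29 and 4.64 in GW9662 1 to 4. Ifit3 measured 7.77, 8.23, 7.62 and 7.84 in vehicle and 8.11, 7.90, 7.70 and 7.76 in GW9662. Ifit2 measured 4.52, 5.08, 4.83 and 4.84 in vehicle and 5.25, 4.69, 4.94 and 5.14 in GW9662. Vehicle 2 was highest for Ifit1 and Ifit3, and GW9662 1 was highest for Ifit2 and next highest for Ifit3.

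Oasl2, an oligoadenylate synthetase-like protein, had the lowest difference of all members, at -0.21 ± 0.13 (SE; interval -0.49 to 0.07). It measured 6.77, 6.71, 6.69 and 6.65 in vehicle and 6.80, 6.64, 6.12 and 6.41 in GW9662. The difference rested largely on GW9662 3, without which it was -0.09, while without GW9662 1 it was -0.32. The other members of the synthetase and synthetase-like family, Oas2, Oas3 and Oasl1, had differences of -0.04, 0.03 and -0.10.

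Rsad2, which encodes the antiviral enzyme viperin, measured 5.81, 6.16, 6.03 and 6.42 in vehicle and 5.99, 6.75, 5.80 and 5.99 in GW9662. GW9662 2 was its highest sample, a place this animal held for 1 other member, Parp14. The dynamin-like GTPases Mx1 and Mx2 had differences of -0.02 and 0.04 and ranges of 0.36 and 0.45. Ifi35, Ifi27, Xaf1 and Parp14 had differences of -0.08, 0.02, -0.06 and 0.07, and none of their ranges exceeded 0.41.

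The 3 chemokines lie next to each other on chromosome 5 and all bind the receptor CXCR3 of activated T cells, yet they differed in which animals were high. Cxcl9, the member induced chiefly by interferon gamma, measured 3.72, 3.80, 4.22 and 3.68 in vehicle 1 to 4 and 5.57, 3.95, 4.06 and 3.97 in GW9662 1 to 4. Its difference was 0.53 ± 0.32 (SE; interval -0.18 to 1.25; adjusted p = 0.997 by limma), and it was 0.14 without GW9662 1. The remaining 7 samples lay between 3.68 and 4.22.

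Cxcl10 measured 7.14, 6.60, 7.64 and 7.17 in vehicle and 6.95, 6.47, 6.75 and 7.61 in GW9662, a difference of -0.19 ± 0.25 (SE). Its highest samples were vehicle 3 and GW9662 4, and its lowest were both animals of number 2. The same 2 high samples and the same 2 low samples were seen for Irf1. Cxcl11 ranged only from 3.55 to 3.81.

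The interferon-induced GTPases had a median difference of 0.09, with 4 of 5 above zero. Gbp2 measured 7.99, 8.25, 7.91 and 7.96 in vehicle 1 to 4 and 8.72, 8.15, 7.79 and 8.44 in GW9662 1 to 4, a difference of 0.25 ± 0.17 (SE; interval -0.13 to 0.63), or 0.10 without GW9662 1. Igtp (Irgm3) measured 8.16, 8.16, 7.83 and 7.80 in vehicle and 8.67, 7.61, 7.66 and 8.01 in GW9662, a difference of 0 ± 0.21 (SE), or -0.23 without GW9662 1. Irgm1, a regulator of the other immunity-related GTPases, measured 5.08, 5.02, 4.73 and 5.13 in vehicle and 5.52, 4.87, 4.92 and 5.02 in GW9662. GW9662 1 was the highest sample for each of these. The other GW9662 animals lay within the vehicle range for Irgm1, within or below it for Igtp, and below, within and above it for Gbp2.

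Gbp7 measured 8.35, 8.43, 7.81 and 8.26 in vehicle and 8.62, 8.12, 8.06 and 8.43 in GW9662, and was also highest in GW9662 1. Gbp3 was dim and differed little between samples, at 3.33 to 3.48 in vehicle and 3.23 to 3.61 in GW9662. Gbp2, Gbp3 and Gbp7 lie together on chromosome 3 and are close paralogs, and the Gbp2 probe set is of a class that can match other transcripts, so the share of each paralog in its signal is uncertain.

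**Figure D3:**
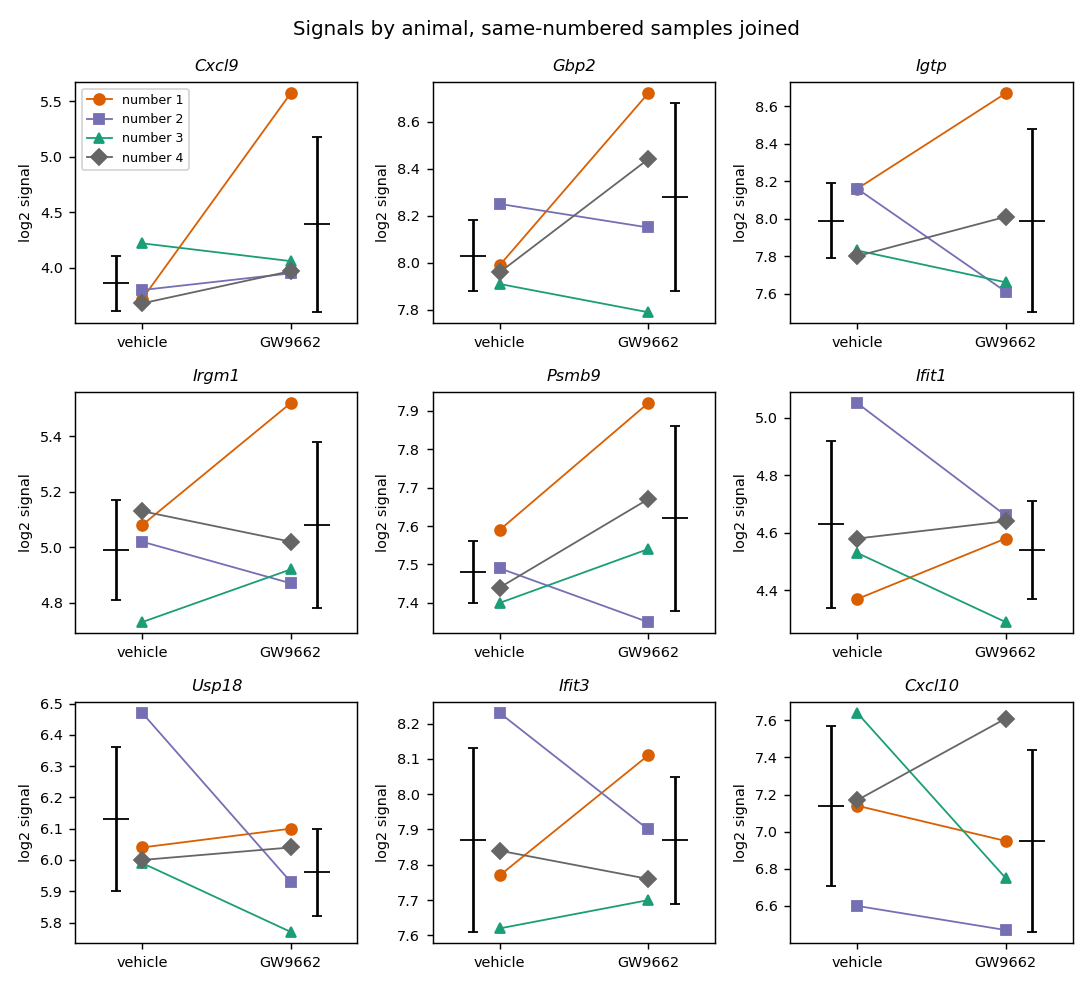
Log2 signal of 9 members in each animal by group, with lines joining animals of the same number and bars for the mean ± SD of 4 animals. Cxcl9, Gbp2, Igtp, Irgm1 and Psmb9 are highest in GW9662 1, Ifit1, Ifit3 and Usp18 are highest in vehicle 2, and Cxcl10 follows neither.

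The class I presentation genes had a median difference of 0.05, with 4 of 5 above zero and Psmb8 at -0.07. Psmb9, an interferon-induced catalytic subunit of the immunoproteasome, measured 7.59, 7.49, 7.40 and 7.44 in vehicle 1 to 4 and 7.92, 7.35, 7.54 and 7.67 in GW9662 1 to 4. Its difference was 0.14 ± 0.11 (SE; interval -0.10 to 0.38), or 0.04 without GW9662 1. Psmb8, another immunoproteasome subunit, measured 9.89, 10.06, 9.71 and 9.76 in vehicle and 10.06, 9.76, 9.51 and 9.83 in GW9662, with vehicle 2 and GW9662 1 level at the top.

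H2-K1, a classical class I heavy chain, measured 12.10, 12.15, 12.03 and 12.01 in vehicle and 12.20, 12.08, 12.06 and 12.06 in GW9662. H2-D1, the other classical heavy chain measured, ran from 11.47 to 11.68 in vehicle and from 11.51 to 11.74 in GW9662. Tapbp, which encodes tapasin of the peptide-loading complex, ran from 10.17 to 10.50 in vehicle and from 10.32 to 10.52 in GW9662. All were highest in GW9662 1, by margins of 0.14 to 0.19 over the median of the other 7 samples. Class I heavy chains are near-identical in sequence and the probe sets used for H2-K1 and H2-D1 can match other transcripts, so their signals may be shared. Several sets existed for 15 members, and in 8 of them (Dhx58, H2-D1, H2-K1, Parp14, Psmb9, Rsad2, Tapbp and Xaf1) the sets differed in the sign of the group difference.

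Across roles, GW9662 1 was the animal with the most members at the top. It was the highest sample in 14 of 38 members, where it was highest in 8.47% of all genes. These were 4 of 5 GTPases, 4 of 5 class I genes and 2 of 14 antiviral effectors. The rest were 2 of 6 signalling and transcription genes, 1 of 5 nucleic acid sensors and 1 of 3 chemokines. It exceeded the median of the other 7 samples by more than 0.3 in 11 of 38 members, against 373 genes (2.18%) of all 17097, a step chosen after the values had been seen. The 11 were Stat2, Nlrc5, Ifi204, Ifit2, Ifit3, Cxcl9, Gbp2, Gbp7, Igtp, Irgm1 and Psmb9. Not every probe set of these genes showed it. A second set of Stat2 was 0.08 above the median in GW9662 1, and the other sets of Psmb9 were at 0.35 and -0.08, while the second sets of Gbp2 and Gbp7 were 0.45 and 0.35 above.

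The excess of Cxcl9 in GW9662 1, 1.62 on the log2 scale or 3.07-fold, ranked 1 among all 17097 genes. The other 7 samples were dim for this probe set, and whether their signal was above background is not known, so the size of this excess is uncertain. That of Igtp was 0.84 (1.79-fold, rank 17) and that of Gbp2 was 0.73 (1.66-fold, rank 29). Nlrc5, Irgm1, Stat2 and Psmb9 followed at 0.51, 0.50, 0.48 and 0.43, with ranks 93, 96, 107 and 144. Irf1, Cxcl10 and Oasl1 were not raised there, at -0.10, -0.19 and -0.19 from the median of the others. These ranks describe 1 animal and carry no test.

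**Figure D4:**
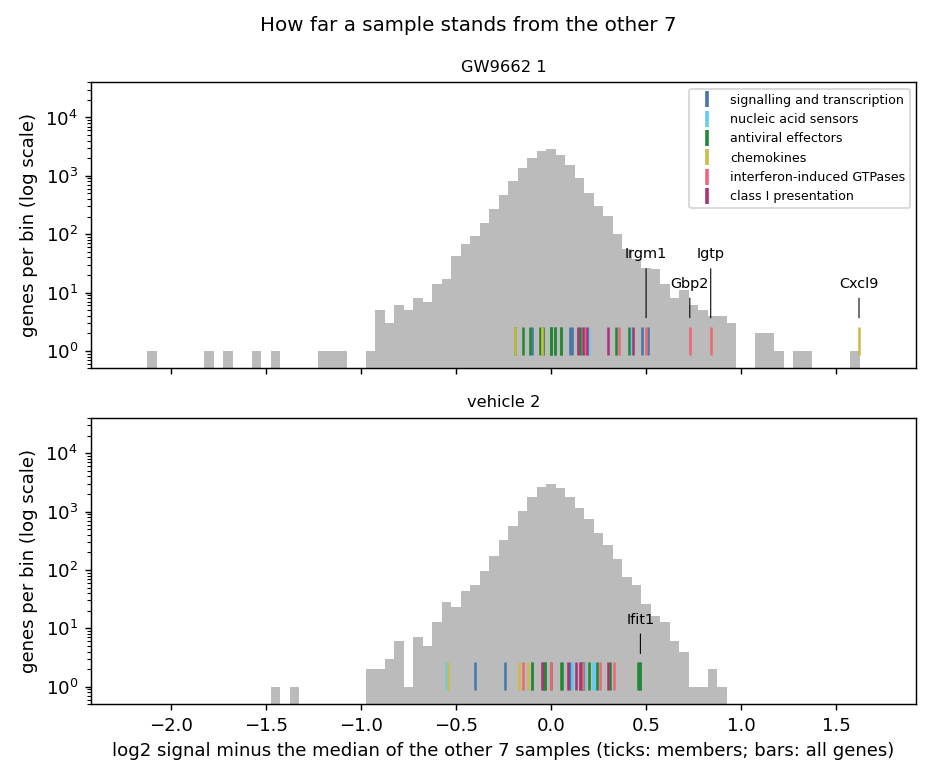
Distribution over 17097 genes of the log2 signal of GW9662 1 (top) and vehicle 2 (bottom) minus the median of the other 7 samples, on a logarithmic count axis, with a tick for each member coloured by role. Cxcl9 lies at the far right for GW9662 1, at 1.62, and Ifit1 lies at 0.47 for vehicle 2.

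Of the 71 other measured genes of the interferon and presentation pathways, 7 were more than 0.3 above the median of the other samples in GW9662 1. The same number was above this step in GW9662 4, and 5 were in vehicle 2. Of all genes, 2.18% were above it in GW9662 1, 3.01% in GW9662 4 and 2.57% in vehicle 2. The highest sample was GW9662 1 for 11 of the 71 and vehicle 2 for 13, against 8.47% and 11.2% of all genes. The 7 in GW9662 1, named after their values had been seen, were Irgm2, Herc6, Trim30a, Samhd1, Ifi47, Tgtp1 and H2-M3. Tgtp1, an immunity-related GTPase like Igtp, measured 4.97, 4.93, 5.15 and 5.40 in vehicle 1 to 4 and 6.05, 4.69, 4.73 and 4.87 in GW9662 1 to 4, and its excess in GW9662 1 of 1.12 ranked 7 among all genes. Irgm2 was at 6.45 in GW9662 1 and at 5.69 to 6.17 in the other samples. Not every GTPase gene outside the GTPase role was raised there. Gbp4, a GTPase like Gbp2 and named after its values had been seen, was at 8.43 in GW9662 1, 0.04 above the median of the others. Mx1 and Mx2, GTPases listed among the antiviral effectors, were 0.05 and 0 above that median in GW9662 1.

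Markers of other cells were set beside this pattern. The mean signal of 12 leukocyte and macrophage markers was 4.29 in GW9662 1, within the 4.28 to 4.34 of vehicle and the 4.27 to 4.32 of GW9662 as a whole. Many of these markers were dim, with Ptprc at 2.81 to 3.01, which limits what their mean can show. Cd68, the brightest of them, was at 8.41 in GW9662 1, 0.32 above the median of the others. It was highest in vehicle 1 (8.54) and lowest in GW9662 3 (7.92). Csf1r was lowest in GW9662 1, at 6.29 (both named after their values had been seen). The 8 T and NK cell markers averaged 4.58 in GW9662 1, at the lower end of both groups (4.58 to 4.71 in vehicle and 4.57 to 4.67 in GW9662). The 5 dendritic and Langerhans cell markers averaged 4.55 in GW9662 1, against 4.44 to 4.59 in vehicle and 4.52 to 4.61 in GW9662. Ifng, the gene of interferon gamma, was at 3.70 in GW9662 1 and at 3.54 to 3.71 in the others.

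The endothelial markers averaged 4.93 in GW9662 1, the lowest of its group. The 6 melanocyte markers averaged 5.13 in GW9662 1 and 4.84 to 5.06 in vehicle. Among them, Mlana was at 6.30 in GW9662 1 and 4.71 to 5.27 in the other samples, an excess that ranked 2 among all genes (named after its values had been seen). Dct, Tyr, Pmel, Tyrp1 and Mitf were at 3.81, 3.99, 4.91, 3.60 and 8.19 in GW9662 1, each within the range of the other samples. The part of these cells in the pattern was not tested.

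Vehicle 2 showed a different selection of members. It was the highest sample in 8 of 38 members, against 11.2% of all genes, and these were Usp18, Dhx58, Zbp1, Ifit1, Ifit3, Oasl1, Ifi35 and Xaf1. It exceeded the median of the others by more than 0.3 in 5 of 38 (Usp18, Ifit1, Ifit3, Xaf1 and Igtp), against 440 genes (2.57%). Ifit1 and Usp18 stood 0.47 above (1.39-fold, rank 71 of 17097) and Ifit3 0.46 above (1.38-fold, rank 80). In the same animal Irf7, Ifi204 and Cxcl10 lay below the median of the others, at -0.40, -0.55 and -0.54.

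GW9662 3 was the lowest sample in 13 of 38 members, where it was lowest in 8.92% of all genes, and it was the highest in 0. The lowest values included Irf9, Nlrc5, Usp18, Ifit1, Oasl2, Gbp2 and Psmb8. The mean deviation of 5 pericyte and smooth muscle markers was also lowest in GW9662 3, at -0.25 against -0.08 to 0.18 in the other samples. Among these, Kcnj8 (named after its values had been seen) was at 7.13 there and at 7.70 to 8.42 in the others, and their part in the pattern was not tested. The GW9662 group thus held both the animal with the most members at the top and the animal with the most at the bottom.

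**Figure D5:**
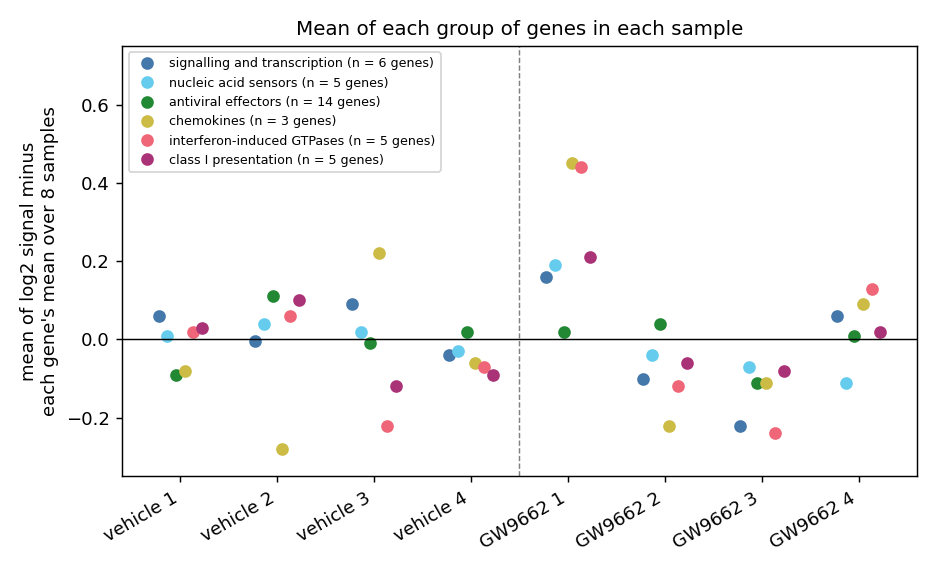
Mean over the members of each role of the deviation in log2 signal from the gene's own mean over 8 samples, drawn for each animal. The GTPases run from -0.24 in GW9662 3 to 0.44 in GW9662 1, and the antiviral effectors from -0.11 to 0.11.

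Averaged by role, the GTPases deviated by 0.02, 0.06, -0.22 and -0.07 in vehicle 1 to 4 and by 0.44, -0.12, -0.24 and 0.13 in GW9662 1 to 4. The class I genes deviated by 0.03, 0.10, -0.12 and -0.09 in vehicle and by 0.21, -0.06, -0.08 and 0.02 in GW9662. The antiviral effectors deviated by -0.09, 0.11, -0.01 and 0.02 in vehicle and by 0.02, 0.04, -0.11 and 0.01 in GW9662. GTPases and class I genes thus had GW9662 1 at the top. The same animal was at the top for the chemokines (0.45), the nucleic acid sensors (0.19) and the signalling and transcription genes (0.16). Only the antiviral effectors had vehicle 2 at the top. The 10 other measured class I presentation genes were also highest on average in vehicle 2, at 0.14, against 0.10 in GW9662 1. Over all 38 members the mean difference between groups was 0.01, and it was -0.05 without the pair of GW9662 1 and vehicle 1, an alternative added after the values had been seen.

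Upstream of the members, the 8 measured interferon ligand and receptor genes differed by at most 0.07 between groups, 4 higher and 4 lower. Ifnb1, the gene of interferon beta, lay between 3.74 and 3.92 in all samples. The type I receptor genes Ifnar1 and Ifnar2 had differences of -0.03 and -0.06, and the interferon gamma receptor genes Ifngr1 and Ifngr2 had -0.07 and 0.06. Ifnlr1, of the type III receptor, and Il10rb, its shared chain, had 0.05 and 0.04.

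Over the 71 further pathway genes, 33 were higher, 37 lower and 1 equal in GW9662, with a median of -0.01, and 0 had an adjusted or unadjusted p under 0.05 by limma. The smallest unadjusted p values belonged to H2-DMa, a class II peptide-loading chain, at -0.16 ± 0.08 (SE), Cgas, the cytoplasmic DNA sensor, at -0.16 ± 0.09, and Parp12 at -0.23 ± 0.15. Irf3, which induces interferon beta, and Adar, an RNA-editing enzyme that limits sensing of cellular RNA, followed at -0.10 and -0.15. All 5 were lower in GW9662 on average without passing the test.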

How the data were processed

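The deposited values are log2 signal intensities to 2 decimals for 45141 probe sets, made by the authors with RMA in the affy package per the submitters' processing notes, which give no versions. RMA corrects background, equalises the arrays' distributions and summarises each probe set. No source used here states the log base, and 2 was inferred from the values' range. Amplification from few cells can alter relative signals. The array annotation gave 1 gene to 28898 probe sets, several to 551 (left out) and none used here to 15692, which left 17097 genes.

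GW9662 minus vehicle was tested two-sided in R 4.3.3 by lmFit and eBayes of limma 3.58.1, without block or filter; p-values were adjusted over all genes by the Benjamini-Hochberg method, and the threshold was 0.05. The procedure was run on simulated independent values without pairs. The differences added there were larger than those of nearly all members, so it does not show what would be found at their size. The number of arrays limits the precision, and p-values weigh the group difference against the spread between these animals. Members and lists were chosen with earlier results of these data known. By rule, the text names all 38 members, the ligand and receptor genes, the 5 further pathway genes of smallest unadjusted p, and the genes of the sort markers; others are said to be chosen afterwards.

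Per the series' design text, animals were killed in pairs, 1 per group, on the same day. Deviations from group means correlated across genes between same-numbered samples at 0.203, 0.163, 0.114 and 0.165, and each sample correlated best with its own number, so the numbers were read as pairs. Alternatives were the replicate block, eBayes with trend and robust options, a restriction to brighter genes, averaging the probe sets of a gene, median centring, repeated quantile normalisation, array weights and each sample left out. Fits without the pair of GW9662 1 and vehicle 1, with and without the block, were added after seeing the data.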

Additional observations from a re-analysis of the deposited data

Results flagged for a closer look

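Within each group of 4, a sample was singled out where its gap to the nearest of the others was a large share of the group's range, by Dixon's criterion. This examined 88 groups of values and picked out 7, where chance picks out about 1 in 20. Cxcl9 was at 5.57 in GW9662 1, with the other GW9662 samples at 3.95 to 4.06. H2-K1 was at 12.20 in the same animal, with the others at 12.06 to 12.08. Usp18 was at 6.47 in vehicle 2, against 5.99 to 6.04. Irf7 was at 6.56 in GW9662 3, against 6.80 to 6.83, and the mean deviation of the antiviral effectors was -0.11 in that animal, against 0.01 to 0.04. Parp14, a mono-ADP-ribosyltransferase, was at 7.90 in vehicle 1, against 8.05 to 8.07, and at 8.20 in GW9662 2, against 8.04 to 8.06. Without GW9662 1 the differences between groups of Cxcl9, Gbp2, Stat2, Psmb9 and Ifit2 went to 0.14, 0.10, 0.07, 0.04 and 0.11, and those of 7 members turned sign (Nlrc5, Ifi204, Eif2ak2, Ifit3, Gbp7, Irgm1 and H2-K1). Other samples had a like influence on some of these, as the Ifit2 difference went to 0.09 without vehicle 1.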

How the results depend on the processing

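The count of members with an adjusted p under 0.05 was 0 in the main test and under all 17 other settings, with a smallest adjusted p of 0.935. With the replicate block it was 0 of 38, the count at an unadjusted p under 0.05 was also 0, and the pairing changed no call. The unadjusted count was 1 with array weights, 1 without the pair of GW9662 1 and vehicle 1 with or without the block, and 0 to 2 with each sample left out (2 without vehicle 2, GW9662 1 or GW9662 3, and 1 without GW9662 2). The member median stayed within its SD between animals of 0.07 under every setting run, from -0.04 without GW9662 1 to 0.03. No difference was called under any of these settings. Signs turned with averaged probe sets for Dhx58 (0.05) and Parp14 (-0.05), with repeated quantile normalisation for Ifit3 (-0.005), and with array weights for Nlrc5 (-0.05), Ifit3 (-0.02) and Oas2 (0.00972). Without the pair of number 1, with or without the block, they turned for Nlrc5 (-0.08), Eif2ak2 (-0.09), Ifit3 (-0.11), Rsad2 (-0.02), Ifi27 (-0.02) and Irgm1 (-0.02). With each sample left out, 19 members turned sign in some setting, with differences of -0.09 to 0.02 for Dhx58, -0.08 to 0.12 for Ifit3, -0.14 to 0.16 for Nlrc5, -0.13 to 0.03 for Oas2, -0.04 to 0.06 for Eif2ak2, -0.18 to 0.14 for Rsad2, -0.01 to 0.06 for Ifi27, -0.18 to 0.08 for Zbp1, -0.06 to 0.25 for Ifi204, -0.18 to 0.05 for Ifit1, -0.13 to 0.00417 for Xaf1, -0.16 to 0.03 for Psmb8, -0.18 to 0.04 for Irf1, -0.04 to 0.18 for Gbp7, -0.09 to 0.03 for Mx1, -0.06 to 0.01 for Cxcl11, -0.05 to 0.16 for Irgm1, -0.00583 to 0.05 for H2-K1 and -0.05 to 0.10 for Mx2. For these settings the cause was not tested. Igtp, whose difference was 0 in the main test, ran from -0.23 to 0.13 with each sample left out. Signal over background is unknown without detection calls, which limits what can be said of dim members such as Gbp3, Cxcl9 and Cxcl11.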

Other observations

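The class II presentation genes, through which professional antigen-presenting cells show peptides to helper T cells, had 3 of 7 measured genes higher and 4 lower in GW9662, with a median difference of -0.07 and differences from -0.16 to 0.11. None passed the test. Their mean deviation was highest in vehicle 2, at 0.14, against -0.09 to 0.04 in the other samples. Vehicle 2 was the highest sample for H2-Aa, H2-Ab1, H2-Eb1 and H2-DMb1, and the lowest for Ciita (all named after their values had been seen). H2-Ab1 stood 0.47 above the median of the others there, rank 71 among all genes. Socs3, a feedback inhibitor of cytokine receptor signalling named after its values had been seen, measured 7.46, 7.22, 7.63 and 7.21 in vehicle 1 to 4 and 6.60, 6.82, 7.50 and 8.15 in GW9662 1 to 4. It was lowest in GW9662 1, the animal with the highest Cxcl9, Igtp and Gbp2 signals, and highest in GW9662 4. Its difference between groups was -0.11 ± 0.29 (SE). Socs1, of the same list and also named afterwards, was at 4.26 in GW9662 1, -0.03 from the median of the other samples. A link between Socs3 and the genes high in GW9662 1 was not tested. Herc6, an interferon-induced ubiquitin ligase named in the same way, was at 5.55 in vehicle 2, which held the highest Ifit1, Ifit3 and Usp18 signals, and at 4.51 to 5.21 in the other samples.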
